A study of Rattus norvegicus with 30 samples.

Results

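The earliest time of the study compared the testes of 3 rats given mono-(2-ethylhexyl) phthalate (MEHP) with those of 3 rats given corn oil, each taken 1 h after gavage. These were the 6 arrays carrying the 1 h label among the 30 of the series, which also covered 2, 3, 6 and 12 h. All 31042 probe sets other than the 57 manufacturer's controls were tested, of 31099 in all. The animals were male Fischer rats of postnatal day 28. The MEHP group received 1 g/kg by oral gavage in corn oil, and the other group corn oil alone. The dose field of the labels reads 1 for the corn oil animals too, which were taken as given no MEHP because their treatment is named as corn oil. Each animal gave 1 array of whole testis RNA, so the replicates were separate animals, numbered 37, 38 and 39 after MEHP and 40, 41 and 42 after corn oil. At 1 h the MEHP animals had received 0.23, 0.24 and 0.23 ml and the corn oil animals 0.21 ml each, and every MEHP animal was dosed before every corn oil animal on the same afternoon. Volume and order of dosing therefore cannot be told apart from treatment at this time. The question was what is, and what is not, altered in the testis at the start of the response.

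MEHP is the metabolite through which the plasticizer di-(2-ethylhexyl) phthalate injures the testis of young rats. Its best known target is the Sertoli cell, the somatic cell that holds and feeds the germ cells, and it is also known to bind peroxisome proliferator-activated receptors (PPARs), which switch on genes of fatty acid use. In most tissues the first genes to respond to a stimulus are the immediate early genes, such as Egr1 and Fos, whose transcription needs no new protein. Genes of cytokines, steroid synthesis, cell junctions and cell death usually follow.

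Many of the immediate early genes are switched on through serum response factor, which binds CArG boxes, and many of the chemokine genes through NF-kB. The RefSeq promoters (GRCr8, the 250 bases before the start) of Egr1, the immediate early gene with the widest gap between the groups at 1 h, and of Cxcl1, a neutrophil attracting chemokine with the largest effect at 12 h among the genes that had passed the test at 3 h, are printed below with CArG boxes and the NF-kB run in capitals. Egr1 lies at chr18:26736828-26737077 (plus strand) and Cxcl1 at chr14:17479322-17479571 (minus strand), both written along the direction of transcription.

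Egr1: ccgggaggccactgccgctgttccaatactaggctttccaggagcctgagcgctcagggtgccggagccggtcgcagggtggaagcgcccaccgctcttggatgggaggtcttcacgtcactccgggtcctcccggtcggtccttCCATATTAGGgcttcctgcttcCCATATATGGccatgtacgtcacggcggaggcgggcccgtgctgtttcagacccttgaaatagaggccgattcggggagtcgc

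Cxcl1: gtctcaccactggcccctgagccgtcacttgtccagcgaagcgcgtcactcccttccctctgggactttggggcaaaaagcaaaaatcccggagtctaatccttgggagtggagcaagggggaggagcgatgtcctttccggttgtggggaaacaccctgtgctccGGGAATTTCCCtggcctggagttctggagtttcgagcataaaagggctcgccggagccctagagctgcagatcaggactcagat

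The Egr1 promoter held 2 CArG boxes, the first at positions -105 to -96 and the second at -83 to -74 from the start. The Cxcl1 promoter held 1 run of 11 bases at -84 to -74 in which 2 overlapping NF-kB matches were found. On both strands, a CArG box was found in 1.5% and an NF-kB site in 6.33% of 33469 rat promoters of the same length. Of the 10 early genes looked for, 7 were in the promoter table, of which 1 held a CArG box and 3 an NF-kB site. A match describes letters and says nothing of binding at 1 h.

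The 2% trimmed mean was 500.1 to 500.2 on each array, which the scaling of the deposited values sets, and 1 of the 6 arrays stood apart. The array of MEHP animal 39 correlated with the other 5 at r = 0.9635 to 0.9678 over probe sets, against 0.9795 to 0.9827 among the others. Its median signal was 121.6, against 141.8 to 145.9. Of 17447 probe sets with a mean signal of at least 100, 1007 lay at least 2-fold below the median of the other 5 arrays in animal 39. Ddx6, an RNA helicase, read 2258 and 2652 in MEHP animals 37 and 38 and 69.0 in animal 39, against 2033, 2295 and 2661 after corn oil. Of those 1007 probe sets 49.4% had 1 gene symbol, against 76.7% of all with a signal of at least 100. The same probe sets were low together in 5 other arrays of the series, 3 of them from corn oil animals (2 at 3 h and 1 at 6 h) and 2 from MEHP animals (6 h and 12 h), in which 67.3 to 82% of them lay at least 2-fold below. In the other 24 arrays that share was at most 15.6%. The low readings thus occurred after corn oil as well as after MEHP, and the differences of the genes named below and the counts over the lists were also computed without animal 39. No control probe set passed the test at 1 h (0 of 57, limma with Benjamini-Hochberg adjustment, smallest adjusted p = 0.928; 1 with an unadjusted p under 0.05).

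**Figure D1:**
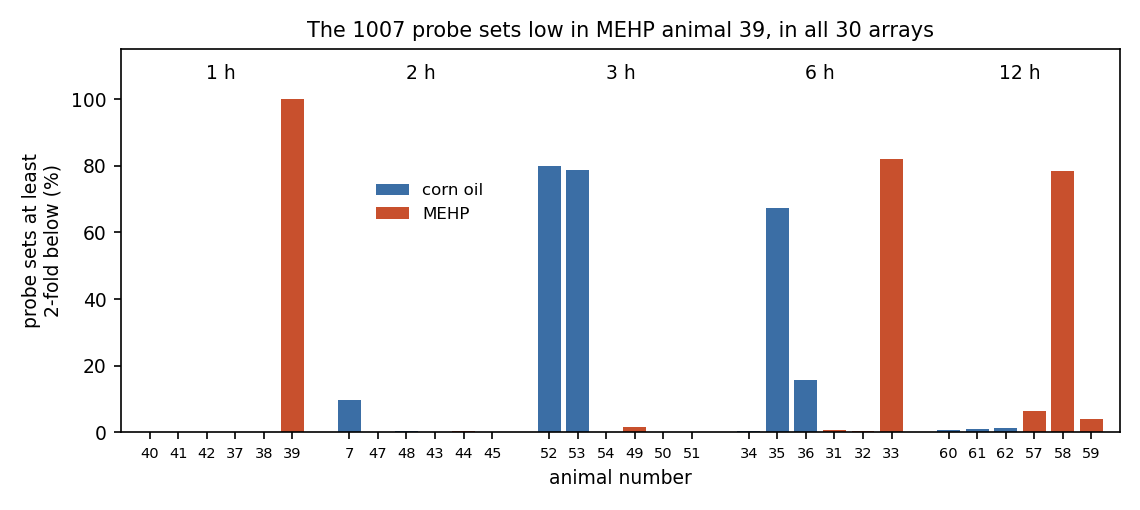
Share (%) of the 1007 probe sets low in MEHP animal 39 that lay at least 2-fold below the median of the other 5 arrays of 1 h, for each of the 30 animals (bars; blue corn oil, orange MEHP), by hours after gavage. Besides animal 39, which chose the probe sets and so stands at 100%, 5 arrays of both treatments stood between 67.3 and 82%, and no other passed 15.6%.

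No gene was altered past the threshold 1 h after gavage. A change here is the mean of the 3 MEHP animals minus that of the 3 corn oil animals in log2(signal + 16), with its standard error from a limma model over all 30 arrays. Adding 16 understates the changes of dim genes. None of the 31042 probe sets was called at an adjusted p under 0.05 (0%, limma with Benjamini-Hochberg adjustment), and the smallest adjusted p was 0.969. An unadjusted p under 0.05 was reached by 963 probe sets (3.1%), 395 of them higher (1.27%) and 568 lower (1.83%) after MEHP. That count depended on the arrays that set the spread. It was 2835 with only the 6 arrays of 1 h in the model and 1701 with corn oil animals of 1, 2 and 3 h pooled (limma). Without animal 39 it was 661. None was called in any of these fits. All 3 MEHP animals lay above all 3 corn oil animals for 2273 probe sets (7.32%) and below them for 2822 (9.09%). The median difference over all probe sets was -0.03. In bulk RNA of a whole testis, fewer cells of a type and less RNA per cell cannot be told apart.

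The same test with 3 against 3 animals called 49 probe sets at 2 h (0.158%), against 9 at 3 h (0.029%). It called 33 at 6 h (0.106%), and the count was 1818 at 12 h (5.86%). The later counts moved with the low-state arrays: without those 6 arrays they were 90 at 2 h, 0 at 3 h (limma, smallest adjusted p = 0.0728; 968 with an unadjusted p under 0.05), 13 at 6 h and 2627 at 12 h. Of the 6 arrays, 2 were corn oil controls of 3 h, which left 1 control at that time. The data bounded most 1 h effects: the 95% interval of the difference lay within 2-fold either way for 23179 probe sets (74.7%) and within 1.5-fold for 12444 (40.1%). Among the 17447 probe sets with a signal of at least 100, 15813 (90.6%) had an interval within 2-fold. Below that signal it was 7366 of 13595 (54.2%). For the remaining probe sets the interval reached beyond 2-fold in at least 1 direction.

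Egr1, a zinc finger transcription factor and immediate early gene whose promoter is printed above, read 1023, 743 and 777 in the MEHP animals and 349, 256 and 276 in the corn oil animals. Every MEHP animal was above every corn oil animal, and the lowest MEHP reading exceeded the highest corn oil reading by more than the range of the corn oil group. The difference was 1.48 ± 0.43 (SE, n = 3 against 3), which is 2.78-fold with a 95% interval of 1.5 to 5.18. Its unadjusted p was 0.00228 and its adjusted p 0.969 (limma, Benjamini-Hochberg), so it did not pass. With only the 6 arrays of 1 h in the model the adjusted p was 0.396, and with corn oil animals of 1, 2 and 3 h pooled as controls the difference was 1.77 with an adjusted p of 0.718. Over all alternatives the difference ran from 1.34 to 1.77 and its adjusted p never fell below 0.396. The same gene stood 3.05 ± 0.43 above corn oil at 2 h and 3.38 ± 0.43 at 12 h, both past the threshold (adjusted p = 0.00188 and 1.23e-05, limma). The effect at 12 h exceeded that at 1 h by 1.90, which did not pass (adjusted p = 0.14, limma).

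Fos, the AP-1 subunit that is induced alongside Egr1 in many cells, read 135, 110 and 111 after MEHP and 51.3, 17.5 and 46.8 after corn oil, again without overlap. The difference was 1.36 ± 0.59, with an unadjusted p of 0.0287 and an adjusted p of 0.969 (limma, n = 3 against 3). A second, dimmer probe set of Fos differed by 0.18 ± 0.40. By 12 h Fos stood 4.43 ± 0.59 above corn oil (adjusted p = 1.6e-05, limma), and the difference of the effects at 12 h and 1 h, 3.07, did not pass (adjusted p = 0.0535).

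**Figure D2:**
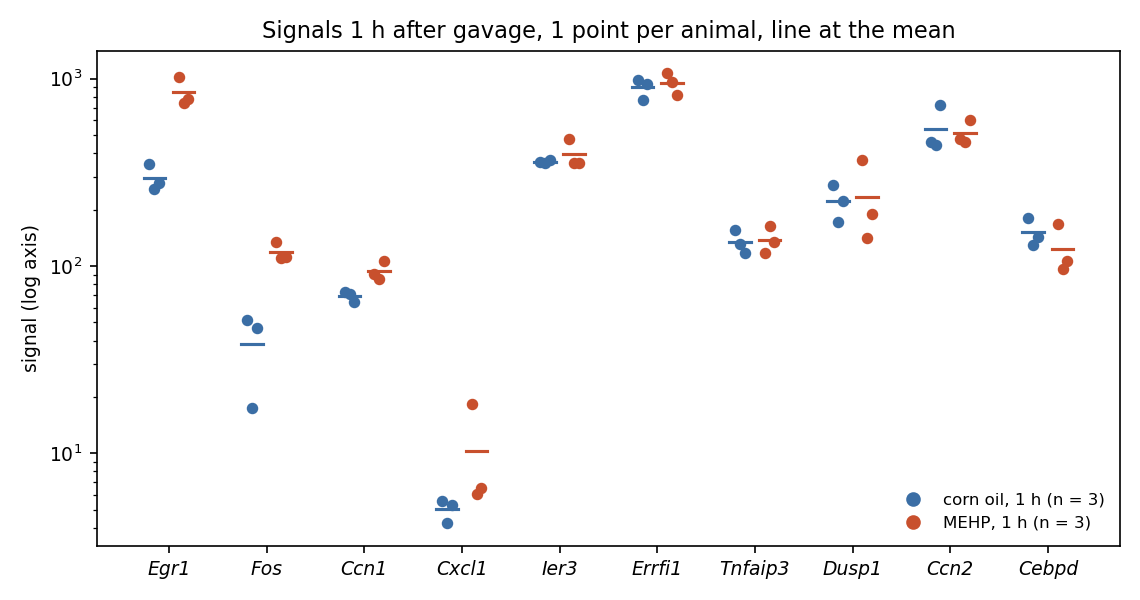
Signals (log axis) of Fos and of the 9 genes that passed the test at 3 h, in each animal at 1 h (blue corn oil, orange MEHP, n = 3 each; lines are group means). Egr1, Fos, Ccn1 and Cxcl1 had all MEHP animals above all corn oil animals, and the other 6 overlapped.

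The other immediate early genes gave no common shift. Of 60 measured members of the list, 0 passed the test, 2 (Egr1 and Fos) had an unadjusted p under 0.05, 25 were higher and 35 lower, and the median difference was -0.05. Over the 14217 genes measured the median was -0.01 and 48.4% were higher. With the arrays centred on their medians, 35 of the 60 were higher and their median was 0.05. Centring moved the median over all genes to 0.09 and made 9839 of the 14217 higher. Counts with centred arrays in the other lists are to be read against that share. With vehicle volume in the model 44 were higher and the median was 0.10, against 0.00 over all genes. With the array median in the model 37 were higher and the median was 0.03, against -0.01 over all genes. Relative to all genes the list thus turned with both covariates and not with centring. In 6 members all MEHP animals were above all corn oil animals and in 4 all were below, against 10.1% and 9.02% of all genes. An unadjusted p under 0.05 was reached by 2.76% of all genes. Intervals lay within 2-fold for 47 of the 60.

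Among the transcription factors, Jun, the partner of Fos in AP-1, read 577, 466 and 351 after MEHP and 566, 474 and 499 after corn oil, a difference of -0.16 ± 0.29. Its groups overlapped. Junb differed by 0.21 ± 0.22, Atf3 by -0.04 ± 0.40 and the orphan receptor Nr4a1 by 0.12 ± 0.41. Nfil3, a bZIP repressor, read 115, 98.9 and 126 against 79.1, 82.8 and 76.7, without overlap, a difference of 0.43 ± 0.29 (adjusted p = 0.969, limma). Jund and Egr3 lay lower in all MEHP animals, with differences of -0.35 ± 0.22 and -0.36 ± 0.30. The lowest of the list was the Fos relative Fosl2, with 41.7, 9.37 and 50.8 against 58.1, 65.4 and 38.8, an overlap and a difference of -0.59 ± 0.41. Myc, a regulator of growth, differed by 0.06 ± 0.34.

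Among the feedback regulators, Dusp1, a phosphatase that switches off MAP kinases, read 367, 142 and 190 after MEHP and 270, 172 and 222 after corn oil. Both the highest and the lowest reading came from MEHP animals, and the difference was -0.01 ± 0.26, with a 95% interval of 0.682- to 1.44-fold. Zfp36, which destabilizes cytokine mRNAs, differed by 0.08 ± 0.22, Tnfaip3, an inhibitor of NF-kB, by 0.03 ± 0.22, and Errfi1, which restrains EGF receptor signalling, by 0.08 ± 0.17. No feedback regulator lay higher in all MEHP animals, and 2, Rgs2 and Dusp2, lay lower in all of them without passing.

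Among the growth and matrix regulators, Ccn1, a matrix protein of the CCN family, read 90.9, 85.3 and 107 after MEHP and 72.2, 70.7 and 64.5 after corn oil. The groups did not overlap, with a difference of 0.37 ± 0.23. Its relative Ccn2, a target of growth factor signalling, read 475, 458 and 603 against 461, 442 and 721, with overlap and a difference of -0.05 ± 0.24. Ier5 was higher in all MEHP animals by 0.22 ± 0.11 (adjusted p = 0.969, limma). Ier2 differed by -0.44 ± 0.44, with animal 39 at 56.9 and the others at 129.8 to 170.5.

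Most genes that passed the test at later times differed little 1 h after gavage. The 9 genes called at 3 h, all of them higher (0.029%), differed by a median of 0.08 at 1 h and 1.86 at 3 h. The 3 h median comes from the values that chose these genes, which favours a large one. Of these 9, 6 were higher and 3 lay higher without overlap (Egr1, Ccn1 and Cxcl1), which 7.32% of all probe sets did, and for 7 the 1 h interval lay within 2-fold. Cxcl1 was close to the detection floor at 1 h, with 18.2, 6.04 and 6.56 after MEHP and 5.59, 4.23 and 5.26 after corn oil. The readings did not overlap, but animal 37 alone stood out, and the difference was 0.29 ± 0.41. Cebpd, a C/EBP factor induced in inflammation, differed by -0.29 ± 0.27 and Ier3, an early gene with a role in cell survival, by 0.12 ± 0.23.

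The 1 h and later comparisons used separate animals, so their effects could be set against each other in the same model. No probe set passed the test for an effect at 2 h or at 3 h unlike that at 1 h (0% each, limma with Benjamini-Hochberg adjustment, smallest adjusted p = 0.0579 at 3 h). That does not show the effects to be equal. An unadjusted p under 0.05 was reached by 1611 (5.19%) and 3380 (10.9%). The count for 3 h moved with the low-state arrays. Without animal 39 the counts were 1520 and 1608, and with the low state as a covariate 1913 and 1022 (limma). At 6 h the effect of 6 probe sets exceeded that at 1 h (0.0193%), and 5 of them had names: Ccn2, Dusp1, Ccn1, Cxcl1 and Ier3. Ccn2 rose by 2.46 ± 0.24 at 6 h, 2.51 more than at 1 h (adjusted p = 0.00138), and Dusp1 rose by 2.37 ± 0.26, 2.38 more (adjusted p = 0.00859, limma). For Cxcl1 the effect at 6 h exceeded that at 1 h by 4.73 (adjusted p = 0.000605). The count at 6 h fell to 1 without the 6 arrays in the low state and was 8 without the probe sets low in animal 39. At 12 h, 610 probe sets had an effect unlike that at 1 h (1.97%), above it for 499 (1.61%) and below it for 111 (0.358%).

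**Figure D3:**
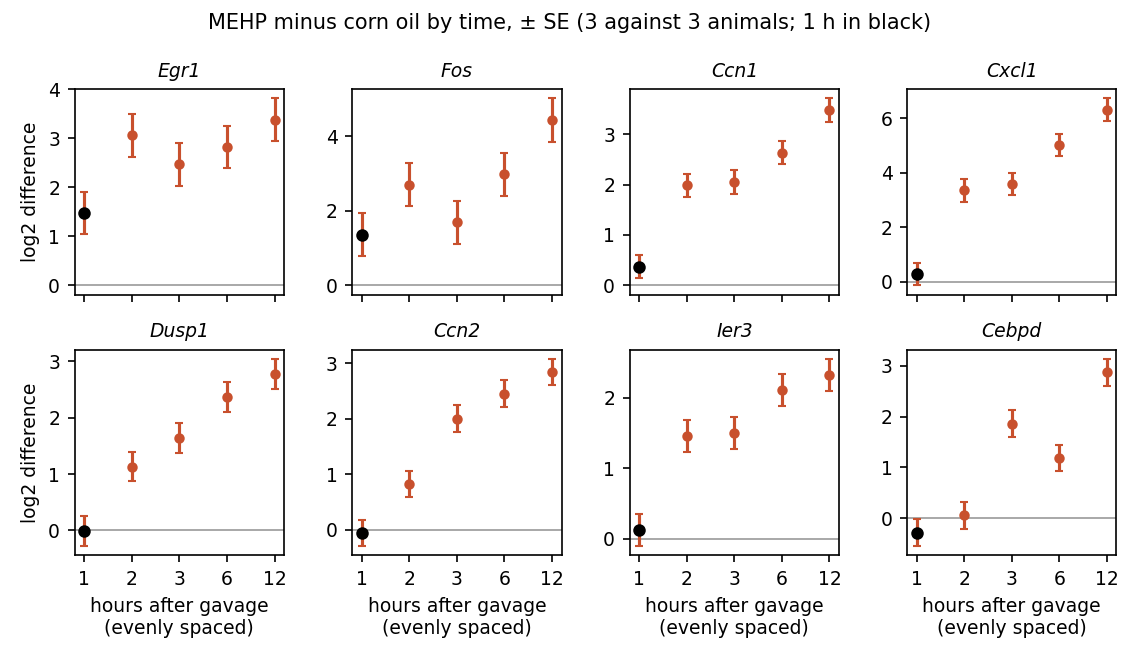
Difference between MEHP and corn oil in log2(signal + 16), ± SE, by hours after gavage for Egr1, Fos, Ccn1, Cxcl1, Dusp1, Ccn2, Ier3 and Cebpd (3 against 3 animals at each time; black points are 1 h; vertical scales differ and times are evenly spaced). At 1 h Egr1 stood at 1.48 and Fos at 1.36, and the other 6 between -0.29 and 0.37.

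As sets, the 22 probe sets called higher at 2 h (0.0709%) had a median of -0.01 at 1 h and 11 of them were higher. The 27 called lower at 2 h (0.087%) had a median of -0.09, and 19 were lower. The 31 called higher at 6 h (0.0999%) had a median of 0.01, and 17 were higher. Of the 1131 called higher at 12 h (3.64%), 36.9% were higher at 1 h, against 43.3% of all probe sets. Of the 687 called lower at 12 h (2.21%), 73.7% were lower at 1 h, against 56.7% of all. Their median at 1 h was -0.08, and it became 0.02 with the arrays centred on their medians, which moved the median over all probe sets from -0.03 to 0.07. Relative to all probe sets it was therefore lower under both scalings. MEHP animal 39 at 1 h and MEHP animal 58 at 12 h were both low-state arrays, and no corn oil array of those times was. What part these arrays had in the share lower at both times was not tested. For 945 of the 1131 and 651 of the 687 the 1 h interval lay within 2-fold.

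Among 34 cytokines, chemokines, adhesion molecules and sensors, 0 passed the test, 3 had an unadjusted p under 0.05, 20 were higher and 14 lower, with a median of 0.04. With corn oil animals of 1, 2 and 3 h pooled, 15 were higher and the median was -0.02. The monocyte chemokine Ccl2 read 35.2, 38.4 and 4.31 after MEHP and 21.1, 27.9 and 18.5 after corn oil, so that 1 MEHP animal was the lowest of all 6. The inflammatory cytokine Il1b read 11.9, 25.3 and 12.0 against 34.0, 14.4 and 28.4. Both genes were dim and their groups overlapped, with differences of 0.00 ± 0.56 and -0.36 ± 0.36. Il1a, which is made in the seminiferous epithelium, lay higher in all MEHP animals by 0.32 ± 0.27, and the adhesion molecule Vcam1 by 0.38 ± 0.34. Of the pattern receptors, Tlr2 read 54.7, 37.9 and 60.5 against 13.2, 25.9 and 8.05, a difference of 1.10 ± 0.41 (adjusted p = 0.969, limma), and Tlr4 differed by -0.68 ± 0.32. The third with an unadjusted p under 0.05 was Sele, an adhesion molecule of activated endothelium, which read 2.15, 8.55 and 1.58 against 5.15, 20.4 and 22.2, with overlap and a difference of -0.64 ± 0.29 (adjusted p = 0.969, limma). All 3 read near the floor of the arrays.

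None of the Leydig cell genes passed. Of 19 steroidogenic genes 10 were higher and 9 lower with a median of 0.00, with 0 at an unadjusted p under 0.05 (limma). The direction of this list depended on the setting: 4 were higher and 15 lower with vehicle volume in the model (median -0.13), and 6 and 13 both with the array median in the model and without corn oil animal 42. Star, which carries cholesterol into the mitochondrion at the rate-limiting step, read 331, 411 and 346 after MEHP and 264, 183 and 429 after corn oil. The corn oil animals spanned the MEHP animals, and the difference was 0.37 ± 0.38. Cyp11a1 differed by 0.17 ± 0.36, and Cyp17a1, the enzyme that commits steroids to androgens, by 0.11 ± 0.54. Prlr, the prolactin receptor and the lowest of the list, differed by -0.41 ± 0.57, with animal 39 at 118 and the other 5 at 374 to 526. The luteinizing hormone receptor Lhcgr differed by 0.13 ± 0.24, Hsd17b3, which makes testosterone, by -0.21 ± 0.38 and the lipoprotein receptor Scarb1 by 0.02 ± 0.28. Insl3, a hormone made by mature Leydig cells, read 754, 922 and 1047 against 561, 765 and 544, with overlap, a difference of 0.54 ± 0.48. Stard4, a cholesterol carrier, lay lower in all MEHP animals, at 231, 265 and 238 against 356, 294 and 309 (-0.36 ± 0.18, adjusted p = 0.969, limma). Of 23 genes of cholesterol synthesis and uptake, 7 were higher and 16 lower with a median of -0.09, and 0 passed. With the arrays centred, 14 of the 23 were higher and the median was 0.01, against 0.09 over all genes. The highest was Fdft1, the squalene synthase, with 3071, 3129 and 3706 against 2649, 2581 and 2779, without overlap, a difference of 0.30 ± 0.17 (adjusted p = 0.969, limma). Its other probe set differed by 0.14 ± 0.13. The lowest, the sterol demethylase Cyp51, read 1588, 1640 and 766 against 1640, 1776 and 1616, a difference of -0.41 ± 0.31 in which animal 39 stood apart.

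PPAR target genes gave no common rise at 1 h. Of 33 measured PPAR and fatty acid genes, 0 passed, 15 were higher and 18 lower, and the median was -0.08. With vehicle volume in the model 9 were higher and 24 lower. With the arrays centred 17 of the 33 were higher, against 9839 of all 14217 genes, and the median was 0.02, against 0.09 over all genes. Cpt1a, which admits fatty acids to the mitochondrion, read 1017, 978 and 1020 after MEHP and 1165, 1091 and 1116 after corn oil, a difference of -0.16 ± 0.10 without overlap. Angptl4, an inhibitor of lipoprotein lipase, differed by 0.16 ± 0.26. The fatty acid transporter Cd36 read 232, 317 and 291 against 136, 176 and 119, above in every MEHP animal, by 0.90 ± 0.48 (adjusted p = 0.969, limma), and this fell to 0.17 with vehicle volume in the model. The mitochondrial carrier Ucp3 read 27.0, 16.1 and 13.3 against 69.4, 42.9 and 74.7, a difference of -1.17 ± 0.46 (adjusted p = 0.969, limma), at signals near the floor.

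Genes of the Sertoli cell lay slightly lower in the MEHP animals. Of 14 measured Sertoli markers 13 were lower and 1, Kitlg, was higher, by 0.06 ± 0.24 (its 3 dimmer probe sets differed by -0.31, -0.48 and -0.55), with 0 called and a median of -0.13. In 5 of the 14 all MEHP animals lay below all corn oil animals and in 0 above, against 9.02% and 10.1% of all genes. The summed signal of these markers was 58413 to 62609 after MEHP and 63000 to 65784 after corn oil, so that the groups did not overlap. With the arrays centred on their medians 5 of the 14 were higher and the median was -0.03, against 0.09 over all genes, and with quantile normalization 1 was higher. The list thus stayed below the median of all genes under both scalings. With vehicle volume in the model 8 were higher and the median was 0.02, against 0.00 over all genes, so there the direction turned. Inha, the alpha chain of inhibin, read 3057, 3009 and 3075 after MEHP and 3764, 3699 and 3112 after corn oil, without overlap, a difference of -0.20 ± 0.15. Amh, the hormone of immature Sertoli cells, differed by -0.20 ± 0.22 and Clu, a secreted chaperone, by -0.12 ± 0.13. Wt1, a transcription factor of Sertoli identity, read 2468, 2734 and 2666 against 2666, 2669 and 2561, a difference of -0.01 ± 0.12. Gdnf, which sustains spermatogonial stem cells, had the lowest difference of the list, -0.68 ± 0.47, at signals of at most 56.5.

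The genes of the blood-testis barrier and the Sertoli cytoskeleton differed little, most of them lying slightly lower after MEHP. Of 41 genes of junctions and cytoskeleton 34 were lower and 7 higher with a median of -0.11, and 0 passed, with 0 at an unadjusted p under 0.05 (limma). Intervals lay within 2-fold for 36 of them, and the median was -0.01 with the arrays centred, against 0.09 over all genes. With vehicle volume in the model 24 were higher and 17 lower, and the median was 0.02. In 9 of the 41 all MEHP animals lay below all corn oil animals and in 1 above, against 9.02% and 10.1% of all genes. The lowest, the laminin chain Lama3, differed by -0.56 ± 0.35 and the highest, the junction receptor Cxadr, by 0.38 ± 0.35. Cldn11, the claudin of the blood-testis barrier, read 11420, 10920 and 10070 after MEHP and 11810, 11900 and 12040 after corn oil, lower in all MEHP animals, with a difference of -0.14 ± 0.12. Gja1, the main gap junction protein of the tubule, differed by -0.14 ± 0.13 and Tjp1, a scaffold of tight junctions, by -0.06 ± 0.09. Vim, whose filaments collapse in Sertoli cells injured by phthalates, read 5261, 5571 and 5792 against 6033, 5726 and 5837, with overlap, a difference of -0.08 ± 0.11.

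Of 27 TGF-beta, activin and inhibin genes 23 were lower and 4 higher, with a median of -0.20 that was -0.10 with the arrays centred. With vehicle volume in the model it was 0.00, with 14 higher and 13 lower. In 6 of the 27 all MEHP animals lay below all corn oil animals and in 0 above, against 9.02% and 10.1% of all genes. None passed, and 1, the receptor Tgfbr1, had an unadjusted p under 0.05 (limma). Tgfbr1 read 2217, 2078 and 2430 after MEHP and 2692, 2594 and 2709 after corn oil, without overlap, a difference of -0.25 ± 0.11. The highest, the co-receptor Tgfbr3, differed by 0.45 ± 0.37, and its other probe set by 0.02 ± 0.23. Smad7, an inhibitor of the same pathway, lay lower in all MEHP animals, with a difference of -0.56 ± 0.34. In the genes with the lowest differences of this list, animal 39 lay far below the other 5 animals: Bmpr2 read 301, 395 and 74.3 against 346, 415 and 431, and Id2 read 885, 693 and 244 against 991, 748 and 1140. Bmpr1a, another BMP receptor, differed by -0.43 with animal 39 and by 0.11 without it. Without that array the median of the list was -0.19 and 23 of 27 members were lower. Some genes stood in more than 1 list, so the lists are not independent. Gdnf, the lowest Sertoli marker at -0.68, was also the lowest of the ligands and antagonists here.

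The cAMP genes downstream of the FSH receptor gave 7 higher and 12 lower of 19, with a median of -0.04, and 11 of them were higher with the arrays centred and 10 with vehicle volume in the model. With the arrays centred their median was 0.055, against 0.093 over all genes. Pde4b, which degrades cAMP, read 556, 576 and 448 after MEHP and 688, 673 and 656 after corn oil, below every corn oil animal, a difference of -0.35 ± 0.15 (adjusted p = 0.969, limma). Adcy9, an adenylate cyclase and the lowest of the list, differed by -0.62 ± 0.44, with animal 39 at 84.5 and the other 5 at 200.2 to 299. Crtc2, a coactivator of CREB, lay higher in all MEHP animals by 0.26 ± 0.15. Creb1 itself read 865, 900 and 340 against 1070, 925 and 932, so that its difference of -0.58 ± 0.40 came with 1 low animal, number 39.

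No gene of apoptosis passed. Of 23 measured, 3 had an unadjusted p under 0.05 (limma), 7 were higher and 16 lower, with a median of -0.01. The counts turned to 17 higher and 6 lower with the arrays centred (median 0.09, against 0.09 over all genes), to 16 and 7 with vehicle volume in the model (0.08), to 13 and 10 with quantile normalization and to 14 and 9 with the array median in the model. Casp8, the initiator caspase of death receptors, read 68.7, 53.3 and 63.5 after MEHP and 138, 113 and 126 after corn oil, below every corn oil animal, a difference of -0.86 ± 0.33 (adjusted p = 0.969, limma). A second Casp8 probe set, also dim, differed by -0.04 ± 0.29. The pro-apoptotic Bak1 and the anti-apoptotic Bcl2l1 both lay higher in all MEHP animals, by 0.58 ± 0.23 and 0.46 ± 0.21. The other Bcl2l1 probe sets differed by -0.07 and 0.03. Fas, the receptor that has been tied to germ cell death after MEHP, read 20.9, 17.9 and 50.8 against 24.6, 43.7 and 21.9, with overlap, a difference of -0.05 ± 0.32, and its ligand Faslg differed by 0.52 ± 0.30.

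Stress and hormone responsive genes differed little. Of all 14217 genes, 9839 were higher with the arrays centred and 7056 with vehicle volume in the model. Of 21 NRF2 genes 8 were higher and 13 lower (17 higher with the arrays centred and 14 with vehicle volume), with Hmox1, which degrades haem, at -0.08 ± 0.17, Gstp1, a glutathione transferase, at -0.20 ± 0.13 and the cystine transporter Slc7a11 at 0.40 ± 0.32. Of 24 genes of endoplasmic reticulum stress and heat shock 12 were higher and 12 lower (20 higher centred, 16 with vehicle volume), all with intervals within 2-fold. The highest, Herpud1, differed by 0.21 ± 0.18 and the lowest, Sesn2, by -0.23 ± 0.17. Of 16 genes of glucocorticoid response and activation 7 were higher and 9 lower, and 12 were higher both with the arrays centred and with vehicle volume in the model. The responsive gene Tsc22d3 stood at -0.16 ± 0.13 and Per1, also a clock gene, at 0.09 ± 0.18. The highest was Hsd11b1, which reactivates glucocorticoids, at 0.13 ± 0.22, and the lowest Pdk4, a kinase that restrains glucose oxidation, at -0.49 ± 0.47. Of 17 clock genes 8 were higher (11 centred, 10 with vehicle volume). The lowest of them was the nuclear receptor Rora, with 340.9, 340.0 and 30.2 against 280.7, 252.0 and 306.6, where animal 39 alone was low. Among 16 genes of glucose and lactate supply Hk1, the hexokinase that starts glycolysis, read 3206, 2975 and 4010 against 2242, 2163 and 2443, higher in every MEHP animal by 0.56 ± 0.27 (adjusted p = 0.969, limma), while its other probe set, at 35.3, differed by 0.00 ± 0.43. The lowest, the glycolytic kinase Pgk1, differed by -0.17 ± 0.19. None of these lists held a gene past the threshold.

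**Figure D4:**
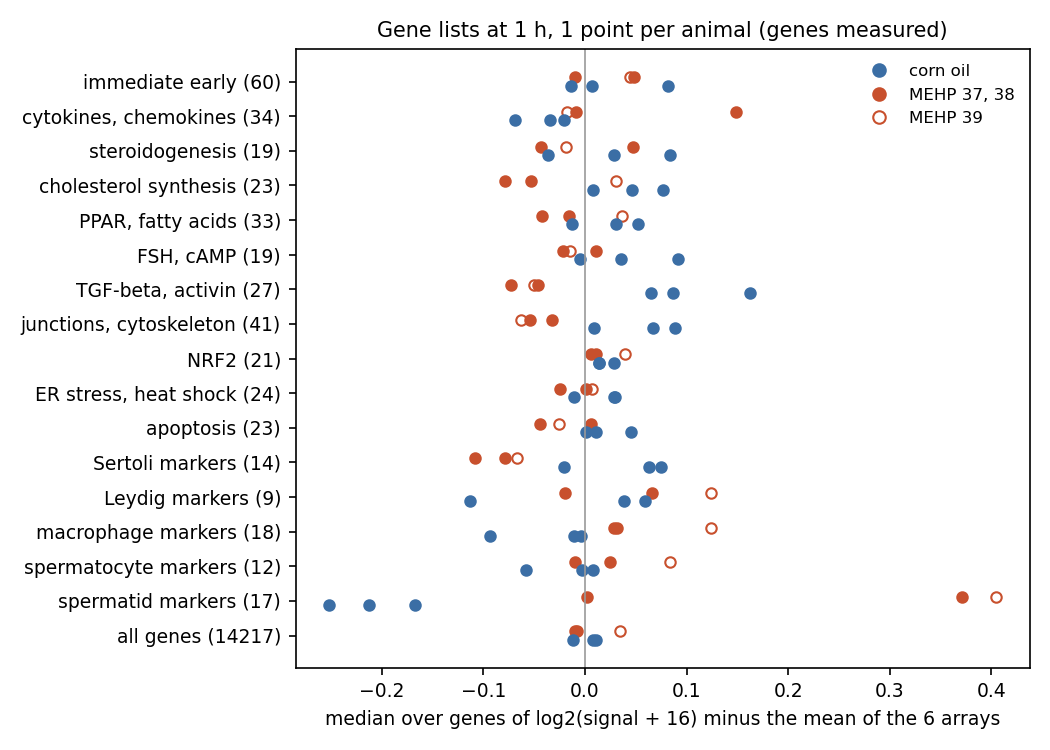
For each gene list and animal at 1 h, the median over the list's genes of log2(signal + 16) minus the mean of the 6 arrays (blue corn oil, filled orange MEHP animals 37 and 38, open orange animal 39; genes measured in brackets). The 3 MEHP points lie right of the corn oil points for the spermatid markers, the macrophage markers and the cytokine list, and left of them for the TGF-beta, junction and Sertoli lists, and all genes lie between -0.01 and 0.03. Lists share some genes and are not independent.

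Markers of spermatids, the haploid germ cells, read higher after MEHP without passing the test. Of 17 measured spermatid markers 16 were higher after MEHP and 1 lower, the median was 0.34, and in 8 of them all MEHP animals were above all corn oil animals, against 10.1% of all genes. None passed the test and none had an unadjusted p under 0.05 (limma). The mean log2 signal of the list was 7.77, 8.12 and 8.08 after MEHP and 7.5, 7.54 and 7.70 after corn oil, and the summed signal 33857 to 37643 against 28739 to 31781. Smcp, a mitochondrial capsule protein of sperm, read 140, 269 and 290 against 67.4, 93.2 and 76.4, a difference of 1.34 ± 0.65 (adjusted p = 0.969, limma). Odf1, a protein of the sperm tail, read 189, 320 and 338 against 127, 172 and 185, and Acr, the protease of the acrosome, 898, 844 and 1113 against 732, 786 and 707. The latest markers, Tnp1, Tnp2, Prm1 and Prm2, read at most 53.4 in every animal and Akap4 at most 34.4. Rats of this age are only beginning to form spermatids. With vehicle volume in the model the median of the list was -0.10 and Smcp differed by 0.32, and with the array median in the model they were 0.10 and 0.77. What part the animals' maturity, the volume or the treatment had in this was not tested.

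The other cell types gave smaller values. Sycp3, a protein of the meiotic chromosome axis, read 17600, 18420 and 17090 after MEHP and 17820, 17930 and 18510 after corn oil, a difference of -0.03 ± 0.10, and 8 of 12 spermatocyte markers were higher with a median of 0.07 (4 of 12 with vehicle volume in the model). The highest was the meiotic cyclin Ccna1, with 1299, 1448 and 1922 against 635.5, 799.1 and 846.3, without overlap, a difference of 1.01 ± 0.50 (adjusted p = 0.969, limma). Its dimmer probe set differed by -0.03 ± 0.25. The lowest, Sycp1, differed by -0.52 ± 0.55, with animal 39 at 146.5 and the other 5 at 409.2 to 505.8. Of 18 macrophage markers 14 were higher with a median of 0.13, led by Adgre1, the F4/80 antigen, at 0.50 ± 0.30, and their summed signal was 3384 to 3762 against 3032 to 3405. Against the pooled corn oil animals of 1, 2 and 3 h only 5 of the 18 were higher and the median was -0.07. The 6 measured neutrophil markers together summed to 52 to 96 after MEHP and 78 to 94 after corn oil, and no single one of them read above 31.9 in any animal. Leydig markers summed to 13207 to 14867 against 12675 to 15548. Of these 9 markers 6 were higher, and 1 was with vehicle volume in the model. Several of them, such as Star, Cyp11a1 and Insl3, are also in the steroidogenic list.

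The genes with the smallest unadjusted p, none of which passed, belonged to no single list, and Egr1, described above, was among them (unadjusted p = 0.00228, limma). The smallest p among genes with a group mean of at least 100 was that of Rab11fip2, a regulator of recycling endosomes, with 135, 118 and 106 after MEHP and 108, 8.00 and 12.7 after corn oil, a difference of 1.62 ± 0.40 (adjusted p = 0.969, limma). The groups overlapped, and corn oil animals 41 and 42 read far below the other 1 h animals. The corn oil means at 2, 3, 6 and 12 h were 107, 96.2, 115 and 135. What lay behind the 2 low readings was not tested. Without corn oil animal 40, Rab11fip2 became the only probe set called at 1 h under any alternative (2.37, adjusted p = 0.00177, limma).

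Crkl, an adaptor of growth factor receptors, read 504, 545 and 705 after MEHP and 337, 397 and 430 after corn oil, without overlap, a difference of 0.56 ± 0.16. Its dimmer probe set differed by 0.44 ± 0.42. Cpne8, a calcium binding copine, lay higher by 0.42 ± 0.13 in its brightest probe set, but its others differed by -0.65 ± 0.47 and -0.15 ± 0.22. Cdkn2d, an inhibitor of cyclin dependent kinases, lay higher by 0.42 ± 0.15, and its other probe set differed by 0.07 ± 0.17. Also higher in all MEHP animals were Pc, the pyruvate carboxylase, by 0.49 ± 0.17, Mus81, a nuclease of DNA repair, by 0.50 ± 0.18, Morc2 by 0.42 ± 0.15, Acin1 by 0.27 ± 0.09 and Chmp2a by 0.24 ± 0.08. The other Acin1 probe sets differed by 0.06 and -0.32. Dusp13b, a phosphatase, lay higher by 1.44 ± 0.48, with 71.2, 116 and 168 against 11.3, 79.8 and 24.9. Among the genes lower after MEHP, Spata13 read 149, 113 and 120 against 204, 219 and 185, without overlap, a difference of -0.61 ± 0.17. The 2 dimmer Spata13 probe sets differed by 0.51 and 0.19. Bik, a pro-apoptotic BCL2 family member, differed by -0.58 ± 0.18, Zfp746 by -0.54 ± 0.17 and the stress kinase Mapk13 by -0.53 ± 0.18. The other Zfp746 probe set differed by -0.04 ± 0.22. Rnf208, Prrx2, Helb and Pla2g1b also lay lower in all MEHP animals, with differences of -0.63, -0.63, -0.58 and -0.50. A second Prrx2 probe set, with a mean signal of 7.64 over the 30 arrays, differed by 0.40 ± 0.28. Pak1ip1 and Ube4b lay lower in all MEHP animals too, with -0.33 and -0.28, against differences of -0.11 and -0.01 in the other probe sets of those last ones. Their adjusted p was 0.969 in each case (limma), the same as for the gene of smallest p.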

How the data were processed

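Testis RNA was hybridised to 1-colour Affymetrix Rat230_2 arrays, 1 per animal. Each deposited value is the linear intensity of a probe set after scaling by the authors, whose software was GCOS 1.0 per the submitters' processing notes. The files carry these values with scaling target and probe summary method not given in the sources used here. Labels gave each animal's group and number. Of the 31042 probe sets tested, 1 symbol was listed for 20826, several for 436 and none for 9780. The 14217 genes so named were each read from the brightest of their probe sets, by mean signal over the 30 arrays. Entrez numbers tied 20758 probe sets to current symbols, with 0 changes.

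log2(signal + 16) was modelled by limma 3.58.1 under R 4.3.3 as 10 group means, with 20 residual degrees of freedom and a trended moderation (24.7 in total, median). The contrasts were the MEHP effect at each time and each later effect minus that at 1 h. Benjamini-Hochberg adjustment ran over 31042 probe sets per contrast, the threshold was 0.05 and intervals are 95%. The fit was tested on simulated data.

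The genes described were taken from the 12 of smallest unadjusted p in each direction with a group mean of at least 100, fixed sentinel genes, each list's highest and lowest member and those with an unadjusted p under 0.05, genes called at 2 or 3 h, and the 12 of smallest p whose later effect differed from that at 1 h. Not every gene so listed is described. Other members whose groups do not overlap were chosen after their values were seen. The members and the 26 lists were chosen with earlier results of these data known. Alternatives were other pseudocounts, a filter on low values, the 6 arrays of 1 h alone, quantile and median scaling, robust moderation, covariates (vehicle volume, RNA integrity, array median), pooled corn oil controls and each animal left out. Those on the low-state arrays were added after the data were seen. Promoter sequences are from RefSeq.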

Additional observations from a re-analysis of the deposited data

Results flagged for a closer look

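The effect of MEHP at 6 h differed from that at 1 h for 6 probe sets, all with a larger rise at 6 h, by the limma contrast of the effects at both times (Benjamini-Hochberg adjusted over 31042 probe sets). The effect at 12 h differed from that at 1 h for 610 probe sets by the same contrast.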

How the results depend on the processing

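The count of 0 probe sets called at 1 h held under every alternative run except 1: it ran from 0 to 1 when an animal was left out, and the 1 was Rab11fip2 without corn oil animal 40. The effect at 2 h differed from that at 1 h for 1 probe set with the array median as a covariate, and for 0 to 1 when an animal was left out (1 without animal 39). The effect at 3 h differed for 3 with robust moderation, 1 with vehicle volume and 4 without the probe sets low in animal 39. Without the 6 arrays in the low state, a setting added after the data were seen, these counts were 1 at 6 h and 934 at 12 h. The probe sets called for the MEHP effect numbered 49, 33 and 1818 at 2, 6 and 12 h as reported. They were 438, 65 and 2596 with the model holding the array median, 248, 55 and 2318 with the low state as a covariate, and 90, 13 and 2627 without its 6 arrays. With RNA integrity as a covariate 33 were called at 2 h and 17 at 6 h, at 2 h the filter on low values gave 140 and vehicle volume 109, and at 3 h 6 were called with centred arrays. Leaving out the 6 arrays leaves some later groups with 1 or 2 animals, whose spread is then taken from the other groups. The cause of these shifts was not tested. No paired analysis was possible because each animal number occurs once, in 1 group.

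The median 1 h difference of the probe sets called higher at 2 h was 0.088 with centred arrays and 0.253 with pooled corn oil, and ran from -0.056 to 0.075 when an animal was left out, and for those called lower at 2 h it was -0.339 with pooled corn oil, which share the 2 h controls. For those called higher at 6 h it was 0.089 with quantile normalization, 0.108 with centred arrays, 0.2 with vehicle volume and 0.118 with the array median, and ran from -0.004 to 0.119 when an animal was left out. For those called higher at 12 h it was -0.005, 0.044, 0.125 and 0.03 under the same 4 settings in turn and -0.007 with the low state as a covariate. For those called lower at 12 h it was 0.018 with centred arrays.

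Of the 110 genes given with a difference at 1 h, none of which passed, 43 turned sign under at least 1 alternative, and their differences were at most 0.86 in size as reported. With vehicle volume as a covariate it was 0.218 for Jun, 0.418 for Atf3, 0.116 for Dusp1, 0.019 for Ccn2, -0.077 for Tnfaip3, -0.092 for Cyp11a1, -0.561 for Cyp17a1, -0.142 for Insl3, 0.061 for Amh, 0.134 for Wt1, 0.074 for Clu, 0.021 for Gja1, 0.05 for Vim, 0 for Bmpr1a, 0.113 for Fas, 0.011 for Tsc22d3, -0.044 for Per1, -0.046 for Herpud1, -0.058 for Odf1, -0.305 for Acr, 0.168 for Ier2, -0.128 for Lhcgr and -0.044 for Scarb1. With the array median as a covariate it was 0.173 for Jun, 0.128 for Atf3, 0.044 for Dusp1, 0.011 for Ccn2, -0.321 for Cyp17a1, -0.005 for Insl3, 0.053 for Wt1, 0.067 for Bmpr2, 0.106 for Bmpr1a, -0.035 for Per1, -0.055 for Acr, 0.032 for Sycp3, 0.164 for Prlr, -0.015 for Lhcgr and 0.06 for Sycp1. With the low state as a covariate it was 0.059 for Jun, -0.187 for Cyp17a1, 0.018 for Bmpr1a, -0.017 for Per1, 0.181 for Prlr and 0.036 for Sycp1. Without the 6 arrays in the low state it was 0.019 for Jun, 0.073 for Dusp1, 0.111 for Bmpr1a, 0.019 for Hmox1, 0.212 for Prlr and 0.273 for Rora. With quantile normalization it was 0.045 for Atf3, 0.084 for Dusp1 and 0.04 for Fas. With arrays centred on their medians it was 0.056 for Atf3, 0.088 for Dusp1, 0.047 for Ccn2, 0.093 for Wt1, 0.036 for Tjp1, 0.017 for Vim, 0.053 for Fas, 0.021 for Hmox1 and 0.068 for Sycp3. With a pseudocount of 64 it was 0.001 for Dusp1. With the corn oil animals of 1, 2 and 3 h pooled it was 0.257 for Dusp1, 0.149 for Ccn2, 0.204 for Cebpd, -0.005 for Tnfaip3, -0.235 for Cxcl1, -0.147 for Ccl2, 0.009 for Wt1, -0.06 for Kitlg, 0.012 for Fas, 0.076 for Prlr, 0.011 for Adcy9, -0.103 for Hsd11b1, -0.081 for Lhcgr and 0.046 for Hsd17b3. With a pseudocount of 4 it was -0.128 for Ccl2. With RNA integrity as a covariate it was 0.01 for Wt1. When 1 animal of 1 h was left out at a time, it ran from -0.328 to 0.019 for Jun, -0.183 to 0.066 for Atf3, -0.152 to 0.308 for Nr4a1, -0.374 to 0.265 for Dusp1, -0.016 to 0.193 for Ier3, -0.177 to 0.167 for Ccn2, -0.028 to 0.181 for Errfi1, -0.084 to 0.127 for Tnfaip3, -0.249 to 0.463 for Ccl2, -0.091 to 0.314 for Cyp11a1, -0.037 to 0.037 for Wt1, -0.114 to 0.219 for Kitlg, -0.765 to 0.111 for Bmpr1a, -0.011 to 0.831 for Tgfbr3, -0.023 to 0.472 for Angptl4, -0.352 to 0.155 for Fas, -0.182 to 0.019 for Hmox1, -0.796 to 0.212 for Prlr, -0.015 to 0.208 for Hsd11b1, -1.201 to 0.273 for Rora, -0.333 to 0.34 for Myc, -0.041 to 0.292 for Lhcgr and -0.147 to 0.188 for Scarb1. The other genes, Egr1 and Fos among them, kept their direction under all of these. The median standard error at 1 h was 0.35 under a signal of 100 and 0.176 above it, with 3 animals a group.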
